A study of Mus musculus with 6 samples.

Results

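Integrins and the components of focal adhesions were followed in E0771 mouse breast carcinoma cells with normal or reduced lamin A/C. The set is a list of 52 genes, matched by exact symbol to a table of 10520 genes, and 45 of the 52 matched. The other 7 (Itga1, Itga2, Itgb8, Tns1, Fermt1, Crk and Tgfb1i1) matched no symbol and were not analysed here. Nedd9, an adaptor of the p130Cas family, matched but had too few counts for a test, which left 44 tested members. Both groups were E0771 cells of C57BL/6 origin, grown in medium with 10% serum, transduced with a lentiviral vector and then selected and expanded in 3 µg/ml puromycin. The shControl cells carried the empty pLKO.5-puro vector, so that they hold no hairpin, and the shLmna cells carried an shRNA against the lamin A/C gene Lmna, which the titles of those libraries call shRNA4. Each group had 3 libraries, made by MARS-seq, a method that counts transcripts from their 3′ ends through tags given to single RNA molecules (unique molecular identifiers, UMIs). The study used lamin A/C knockdown to ask how the nuclear lamina affects squeezing, migration and growth of tumor cells, in E0771 and in B16F10 melanoma cells, and the B16F10 libraries were not analysed here.

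Integrins are receptors made of an alpha and a beta subunit, which bind matrix proteins such as fibronectin, collagen and laminin outside the cell. Inside the cell, talin and kindlin bind the beta subunit and switch the receptor on, and vinculin, tensins, alpha-actinins and filamins tie it to actin filaments. Focal adhesions also hold the kinases FAK and Src, the scaffolds paxillin and p130Cas, and LIM proteins such as zyxin that respond to tension, so that they act both as anchors and as signalling sites.

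The libraries held between 1846208 and 3242051 UMIs, and all levels below are UMIs per 1000000 UMIs of the library, after scaling by TMM factors (CPM). Lmna, on the minus strand at chr3:88480147-88509956 (GRCm38), was at 810, 874 and 936 CPM in the shControl libraries and at 388, 376 and 379 in the shLmna libraries, and fell by 1.20 on the log2 scale (SE 0.13, adjusted p = 3.5e-05). Levels of Vim were high in every library, Krt8 and Epcam were found in every library, and Krt19, Cdh1, Cldn4, Cldn7 and Esr1 matched no symbol. Of the epithelial list 4 of 9 markers matched, with a summed level between 266 and 323 in shControl and between 288 and 316 in shLmna, nearly all of it Krt8. Epcam was at 13.3, 14.4 and 13.3 CPM in shControl and at 5.25, 11.7 and 4.25 in shLmna without overlap (log2 fold change -0.90, adjusted p = 0.0909). The leukocyte markers Lyz2 and Csf1r, the only ones of their list that matched (Ptprc and Cd3e did not), summed to between 5.88 and 8.75 in shControl and between 15.4 and 18.1 in shLmna. The fibroblast list, of which Pdgfra and Pdgfrb matched among 4 while Dcn and Lum did not, summed to between 14.3 and 18.1 in shControl and between 23.9 and 24.5 in shLmna. The basal and mesenchymal list (3 of 6 matched, with Krt5, Trp63 and Cdh2 unmatched) summed to between 4829 and 5709 in shControl and between 5631 and 6427 in shLmna, nearly all of it Vim. Within that list Acta2 rose from 2.75, 4.06 and 1.59 CPM to 9.74, 15.1 and 16.5 (log2 fold change 2.18, SE 0.40, adjusted p = 0.00147). Acta2 had only 7, 13 and 3 UMIs in the shControl libraries and passed the filter through its level in shLmna. Krt14 had a log2 fold change of -1.18 without overlap (adjusted p = 0.0772). With 8, 5 and 13 UMIs in the shLmna libraries, Krt14 passed the filter through its level in shControl. Of the endothelial list only Pecam1 matched among 4, at between 0.625 and 3.18 in shControl and between 0.75 and 2.13 in shLmna. The part of these transcripts in the results was not tested.

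Transcripts of melanocytes (Pmel, Dct, Mlana and Tyrp1) were abundant in 2 libraries, shControl replicate 3 with 1354 UMIs and shLmna replicate 2 with 1582, which are 718 and 581 CPM. In the other 4 libraries they were at 12, 7, 1 and 3 UMIs. In a fit with a term for these 2 libraries, 109 of 8969 genes were called for the term, among them 1 member, the scaffold gene Pxn (log2 difference -0.58, adjusted p = 0.0478). Where these transcripts came from was not tested, and values without both libraries are given beside the called members below. The shControl libraries were on plate positions 13 to 15 and the shLmna libraries on positions 16 to 18, so that plate position and group cannot be told apart.

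**Figure D1:**
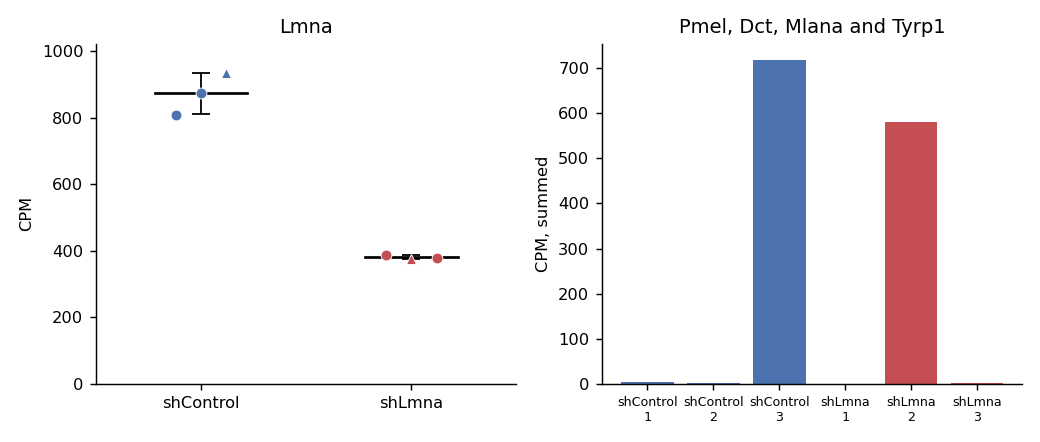
Left, level of Lmna (CPM) in each library of shControl (blue) and shLmna (red), with the mean (line) and SD (error bar), triangles marking shControl replicate 3 and shLmna replicate 2. Right, summed level of the melanocyte transcripts Pmel, Dct, Mlana and Tyrp1 (CPM) in each library, which was 718 in shControl replicate 3 and 581 in shLmna replicate 2 and at most 4.71 in the other 4.

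Of the 44 tested members, 10 differed between shLmna and shControl by edgeR's quasi-likelihood test at an adjusted p below 0.05, 5 higher in shLmna (Vcl, Tns2, Parva, Bcar1 and Cd47) and 5 lower (Itgb1, Itgb3, Flnc, Lims2 and Pdlim1). That is 22.7% of the members, where 13.7% of all 8969 tested genes were called. The list was chosen with earlier results of these data known, so its shares describe the list and are no test of it. By direction, 11.4% of the members were higher and 11.4% lower, where 7.96% of all tested genes were higher and 5.78% lower. By the criteria of the study, which also ask for a change above 1 on the log2 scale and a mean normalized count above 5, edgeR called 0 of the 44 members, where 5.71% of all tested genes were called. DESeq2 and limma-voom also called 0 members by the criteria of the study. At an unadjusted p below 0.05 in edgeR the number was 16 of 44, where 28.4% of all tested genes were under it. The median log2 fold change of the members was 0.039, with 24 above 0 and 20 below, and that of all tested genes was 0.0033. The median size of the change, regardless of its direction, was 0.28 for the members and 0.27 for all tested genes. In 18 of 44 members, 40.9%, the libraries of the groups did not overlap, which also held for 32.5% of all tested genes. In libraries of bulk RNA, fewer cells that express a gene and less of its RNA in each cell cannot be told apart.

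**Figure D2:**
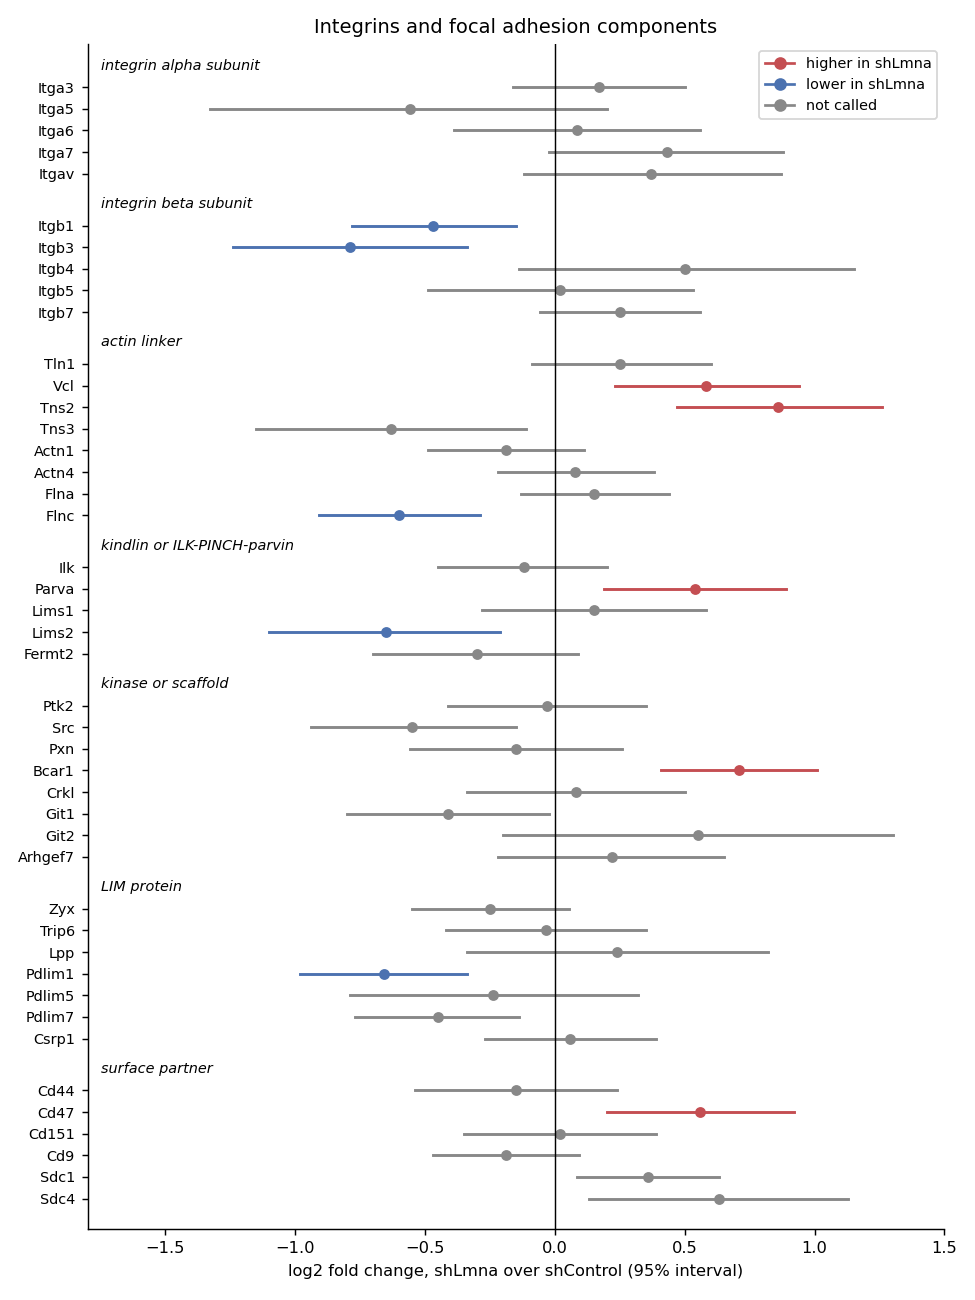
Log2 fold change of shLmna over shControl (points) with its 95% interval (lines) for the 44 tested members, ordered by role. The 5 members called higher are in red and the 5 called lower in blue, and the estimates of the 34 others (grey) lie between -0.63 and 0.63.

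The members were also fitted under 18 alternative settings of the processing, and a call is described below by how many of these kept it. With a mean count of at least 50, 38 of the 44 remained to be fitted, and all 10 called members were fitted under all 18 settings. Bcar1 and Tns2 were called in all 18, Pdlim1 in 17 and Flnc in 16, whereas Itgb3 was called in 13, Itgb1 in 12, Cd47 in 11, Vcl in 10, Parva in 9 and Lims2 in 6. Without the 2 libraries with melanocyte transcripts, 13.1% of all tested genes and 9 members were called, 4 higher (Tns2, Bcar1, Cd47 and Sdc4) and 5 lower (Itgb1, Itgb3, Flnc, Src and Pdlim1). With the counts corrected for the GC content of the 3′ ends, 16.8% of all tested genes were called, and the members called were Tns2, Parva, Bcar1 and Sdc1 as higher and Itgb1, Itgb3, Flnc, Lims2, Fermt2, Src, Pdlim1 and Pdlim7 as lower. The counted 3′ ends of the tested members had a median GC content of 49.9%, and those of all tested genes 47.1%. The counted ends of 6 tested members (Actn4, Ilk, Itga7, Itgb4, Trip6 and Vcl) overlap a gene on the opposite strand, and whether the counting used the strand is not given in the sources used here. The members were also more abundant than most genes, since 33 of 44 lay above the median level of all tested genes, 35.8 CPM.

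Promoter windows of RefSeq (GRCm38.p6, 250 bases before to 50 after a start) were found for 36 of the 44 tested members, 7 of them among the called. These windows were searched on both strands for motifs of factors known to act on adhesion and cytoskeleton genes, the CArG box of serum response factor, GGAATG of the TEAD factors, TGAGTCA of the AP-1 factors and GGGCGG of Sp1. A CArG box was found for 3 of the 36 members (Vcl, Fermt2 and Trip6), that is 8.33%, and for 1.57% of 6927 tested genes with a window. The TEAD motif was found for 7 members, Actn4, Flna, Flnc, Itgb1, Lpp, Trip6 and Vcl (19.4%, and 13.9% of the tested genes), the AP-1 motif for Zyx alone (2.78%, and 4.49%) and the Sp1 motif for 31 members (86.1%, and 72.4%). Among all 32841 RefSeq windows a CArG box was in 1.63%, the TEAD motif in 14.7%, the AP-1 motif in 5.2% and the Sp1 motif in 35.7%. The windows of the called members that hold a TEAD motif or a CArG box are printed 5′ to 3′ with both motifs in capitals, which share no bases, and the TEAD motif is in a member that was higher, Vcl, and in members that were lower, Itgb1 and Flnc, while the CArG box is in Vcl alone. In Vcl the first run of capitals is the CArG box, which begins 227 bases before the start, and the next is the TEAD motif, and in Flnc, for which the later of 2 windows is shown, the TEAD motif is on the other strand. A match is a description of these letters and not of binding.
Vcl, chr14:20929148-20929447, plus strand: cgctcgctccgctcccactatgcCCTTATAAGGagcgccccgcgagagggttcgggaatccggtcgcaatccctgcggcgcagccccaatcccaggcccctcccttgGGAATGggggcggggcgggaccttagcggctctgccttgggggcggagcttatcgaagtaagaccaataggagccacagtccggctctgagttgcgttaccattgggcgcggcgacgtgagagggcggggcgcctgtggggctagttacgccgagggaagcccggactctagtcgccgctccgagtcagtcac
Itgb1, chr8:128685404-128685703, plus strand: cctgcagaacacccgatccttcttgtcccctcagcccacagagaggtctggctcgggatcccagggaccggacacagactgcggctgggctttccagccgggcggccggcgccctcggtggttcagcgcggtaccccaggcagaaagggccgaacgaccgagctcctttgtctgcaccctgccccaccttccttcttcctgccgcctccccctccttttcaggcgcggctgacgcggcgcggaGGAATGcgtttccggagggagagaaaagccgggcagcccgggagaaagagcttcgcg
Flnc, chr6:29433006-29433305, plus strand: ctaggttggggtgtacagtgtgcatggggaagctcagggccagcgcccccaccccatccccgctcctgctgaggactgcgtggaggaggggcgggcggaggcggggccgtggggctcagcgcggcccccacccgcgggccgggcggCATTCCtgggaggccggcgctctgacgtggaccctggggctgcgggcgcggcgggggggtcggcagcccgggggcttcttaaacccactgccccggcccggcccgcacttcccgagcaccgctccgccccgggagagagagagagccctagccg

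Of the integrin alpha subunits, which set which matrix protein a receptor binds, 5 of 7 matched and all 5 were tested, and none was called (0%). The smallest p among them was that of Itga7, a laminin receptor subunit, which was at 39.2, 38.1 and 29.2 CPM in shControl and at 54.7, 34.5 and 56.4 in shLmna. The groups overlapped, since shLmna replicate 2 lay below 2 of the shControl libraries, and the log2 fold change was 0.43 with an interval from -0.024 to 0.88 (adjusted p = 0.202). Itga3, another laminin receptor subunit, was at 51.4 to 56.6 in shControl and at 59.6 to 62.7 in shLmna without overlap, a log2 fold change of 0.17 with an interval from -0.16 to 0.50. The estimates for Itgav, the partner of several beta subunits, and Itga6 were 0.37 (-0.12 to 0.87) and 0.085 (-0.39 to 0.56). Itga5, which forms the main fibronectin receptor with Itgb1, was measured at a low level, 7.6 ± 0.783 CPM in shControl and 5.38 ± 2.28 in shLmna (SD, n = 3 each), and its interval was the widest of the alpha subunits, from -1.33 to 0.20. Summed over the 5 alpha subunits, the levels were 142, 153 and 144 in shControl and 167, 160 and 190 in shLmna. These sums did not overlap, although no single subunit was called. Of the other roles only the surface partners had sums without overlap (1189, 1137 and 1208 in shControl, 1236, 1227 and 1354 in shLmna). Those of the beta subunits overlapped (808, 765 and 657 in shControl, 717, 568 and 580 in shLmna). The sums were not tested.

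Of the beta subunits 5 of 6 matched and were tested, and 2 were called, both lower. Itgb1 (chr8:128685654-128733200, plus strand), the partner of most alpha subunits, was at 501, 526 and 400 CPM in shControl and at 387, 315 and 332 in shLmna. All shLmna libraries lay below all shControl libraries, by a narrow gap between shLmna replicate 1 and shControl replicate 3. The mean was 476 ± 66.8 in shControl and 345 ± 37.9 in shLmna (SD, n = 3 each), and Itgb1 fell by 0.47 on the log2 scale (SE 0.15, adjusted p = 0.0498), which is only just under the threshold. The call was lost without shControl replicate 1 (adjusted p = 0.11) or 2 (0.206) and without shLmna replicate 2 (0.164) or 3 (0.148), with no filter on low counts and with a mean count of at least 50, while without both libraries with melanocyte transcripts it was kept (-0.51, adjusted p = 0.0398).

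Itgb3 (chr11:104608000-104670476, plus strand), the beta subunit of the vitronectin receptor, had the largest decrease of the members. Its levels were 39.2, 39.1 and 29.7 CPM in shControl and 17.2, 22 and 23.9 in shLmna. Every shLmna library was below every shControl library, and the lowest control library was shControl replicate 3. Itgb3 fell by 0.79 on the log2 scale, to 0.577 of its level (SE 0.21, adjusted p = 0.0208), and without both libraries with melanocyte transcripts by 0.95 (adjusted p = 0.0117). Leaving out shControl replicate 1 (adjusted p = 0.0546) or 2 (0.107), or shLmna replicate 1 (0.0789) or 2 (0.0503), ended the call, as did thinning the libraries to the smallest.

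The other 3 beta subunits were not called. Itgb7, best known in lymphocytes as the partner of Itga4 and Itgae, was at 93.7, 96.3 and 112 CPM in shControl and at 126, 113 and 120 in shLmna. These libraries did not overlap, by a narrow margin, and the log2 fold change was 0.25 with an interval from -0.059 to 0.56 (adjusted p = 0.281). Itgb4, the laminin receptor subunit of hemidesmosomes, had an estimate of 0.50 (-0.14 to 1.15), and its counted end overlaps that of Galk1 on the opposite strand. Itgb5, a further partner of Itgav, had one of 0.019 (-0.49 to 0.53), with libraries of both groups spread from 85.1 to 170.

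Of the proteins that link integrins to actin 8 of 9 matched and were tested, 2 of them higher, 1 lower and 5 not called. Vcl (chr14:20929398-21033676, plus strand) encodes vinculin, which binds talin under tension and recruits actin filaments. It was at 54.1, 49.4 and 43 CPM in shControl and at 66.3, 73.1 and 81.9 in shLmna. All shLmna libraries were above all shControl libraries, and Vcl rose by a log2 fold change of 0.58 (SE 0.16, adjusted p = 0.0285), from a mean of 48.8 ± 5.6 to 73.8 ± 7.8 (SD, n = 3 each). Its 3′ end is poor in GC, at 36.6%, and after the GC correction the log2 fold change was 0.23 (adjusted p = 0.411), so that the call was lost. It was also lost without shControl replicate 2 (adjusted p = 0.098) or 3 (0.0574) and without shLmna replicate 2 (0.0739) or 3 (0.111). Without both libraries with melanocyte transcripts the value was 0.51 (adjusted p = 0.0923), and the call was lost there too. The counted end of Vcl overlaps an exon of Ap3m1 on the opposite strand.

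Tns2 (chr15:102100413-102116401, plus strand) encodes a tensin, which binds the tail of the beta subunit and actin. Its levels were 38.4, 39.4 and 36.1 CPM in shControl and 83.2, 69.8 and 53.7 in shLmna. The control libraries lay close together and the shLmna libraries were spread, all above them. Tns2 had the largest increase of the members, a log2 fold change of 0.86, or 1.82-fold (SE 0.18, adjusted p = 0.00657). The call was kept in all 18 settings, with estimates from 0.69 to 1.01, the highest of them without shLmna replicate 3, where it passed the criteria of the study. Without both libraries with melanocyte transcripts Tns2 rose by 0.83 (adjusted p = 0.0138).

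Tns3, a related tensin, was not called and had an estimate of the opposite sign. It was at 20, 14.7 and 16.4 CPM in shControl and at 10.9, 11.7 and 10.1 in shLmna. These libraries did not overlap, and the log2 fold change was -0.63 with an interval from -1.15 to -0.11 (adjusted p = 0.101).

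Filamins crosslink actin filaments and bind beta subunits. Flnc (chr6:29433256-29461883, plus strand), the filamin of muscle, was at 146, 124 and 125 CPM in shControl and at 89.9, 81.1 and 90.4 in shLmna. All shLmna libraries lay well below the control libraries, and Flnc fell by 0.60 on the log2 scale (SE 0.15, adjusted p = 0.0139), from a mean of 132 ± 12.6 to 87.2 ± 5.22 (SD, n = 3 each). The call was lost without shControl replicate 1 (adjusted p = 0.054) or shLmna replicate 2 (0.0637) and was kept without both libraries with melanocyte transcripts (-0.58, adjusted p = 0.0327). Flna, the filamin of most cells, was at 1154 to 1286 in shControl and at 1290 to 1501 in shLmna, a log2 fold change of 0.15 with an interval from -0.13 to 0.44. For talin (Tln1), which activates integrins, the estimate was 0.25 (-0.09 to 0.60). The alpha-actinins Actn1 and Actn4, which bundle actin filaments, had estimates of -0.19 (-0.49 to 0.11) and 0.077 (-0.22 to 0.38).

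**Figure D3:**
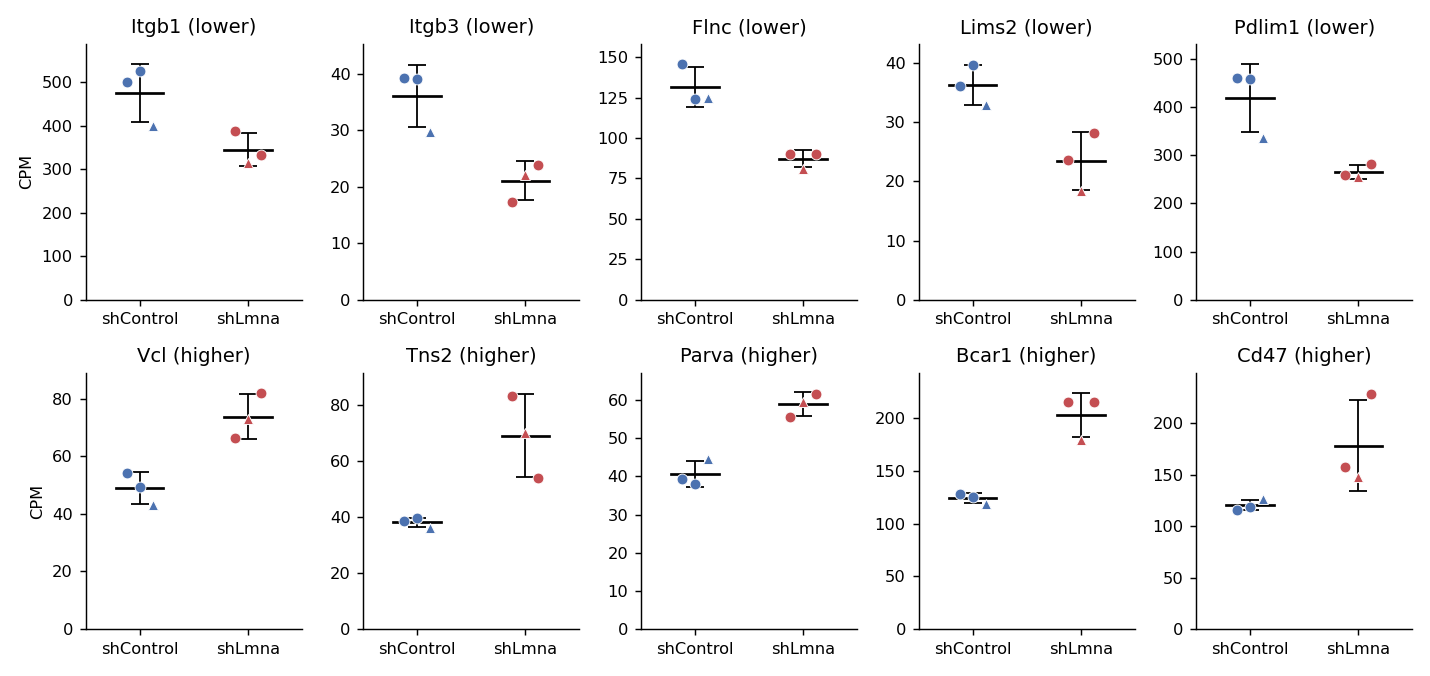
Levels (CPM) of the 10 called members in each library of shControl (blue) and shLmna (red), with the mean (line) and SD (error bar), the upper row lower in shLmna and the lower row higher, and triangles marking shControl replicate 3 and shLmna replicate 2. In none of the 10 do the libraries of the groups overlap, and the gap is narrowest, as a ratio of the nearest libraries, for Itgb1, with 400 and 387.

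The kindlins and the complex of ILK, PINCH and parvin bind the beta tail beside talin and connect it to actin. Of these 5 of 6 matched and were tested, 1 of them higher, 1 lower and 3 not called. Parva (chr7:112427505-112591692, plus strand) encodes alpha-parvin, the actin-binding arm of the complex. It was at 39.2, 38.1 and 44.6 CPM in shControl and at 55.5, 59.5 and 61.7 in shLmna, so that no libraries of the groups overlapped. Parva rose by a log2 fold change of 0.54 (SE 0.16, adjusted p = 0.0404). Its estimates stayed between 0.49 and 0.60 over the 18 settings, but the call was lost without shControl replicate 1 (adjusted p = 0.112) or 2 (0.16), without shLmna replicate 1 (0.0726), 2 (0.105) or 3 (0.116), with DESeq2 (0.0776) and without both libraries with melanocyte transcripts (0.59, adjusted p = 0.0567).

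The PINCH proteins are LIM-domain adaptors that bind ILK. Lims2, which encodes PINCH-2, was at 36.1, 39.7 and 32.9 CPM in shControl and at 23.6, 18.4 and 28.2 in shLmna. The shLmna libraries were all below the control libraries, with shLmna replicate 2 the lowest, and Lims2 fell by 0.65 on the log2 scale (SE 0.21, adjusted p = 0.0494). Only 6 of 18 settings kept the call, which was lost without shControl replicate 1 (adjusted p = 0.0811) or 2 (0.197), without shLmna replicate 1 (0.0924), 2 (0.19) or 3 (0.0505), with DESeq2 (0.0844) and without both libraries with melanocyte transcripts (-0.56, adjusted p = 0.117). Its paralog Lims1, PINCH-1, had an estimate of 0.15 (-0.28 to 0.58), which turned to -0.23 with the GC correction.

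Ilk, the pseudokinase at the centre of the complex, had an estimate of -0.12 (-0.45 to 0.20), and its counted end overlaps that of Taf10 on the opposite strand. Fermt2, the kindlin of adherent cells, was at 54.1, 59.4 and 69.5 CPM in shControl and at 56.2, 52.5 and 37.8 in shLmna. The groups overlapped, and the log2 fold change was -0.30 with an interval from -0.70 to 0.09 (adjusted p = 0.305). With the GC correction it was -0.58 (adjusted p = 0.0399), and the GC content of its 3′ end is 37.1%.

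Of the kinases and scaffolds 9 of 10 matched and 8 were tested, and 1 was called. Bcar1 (chr8:111710474-111743809, minus strand) encodes p130Cas, a scaffold that FAK and Src phosphorylate and that is stretched under force. It was at 128, 125 and 119 CPM in shControl and at 215, 179 and 215 in shLmna. All shLmna libraries lay far above the control libraries, which differed little among themselves. Bcar1 rose by a log2 fold change of 0.71, or 1.64-fold (SE 0.14), and had the smallest adjusted p of the members (0.00412). The call was kept in all 18 settings, with estimates from 0.65 to 0.79. Without both libraries with melanocyte transcripts Bcar1 rose by 0.77 (adjusted p = 0.00328).

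Src, the tyrosine kinase that acts with FAK, was at 138, 151 and 93.9 CPM in shControl and at 94.1, 74.2 and 96.2 in shLmna. The groups overlapped through shControl replicate 3, which lay among the shLmna libraries, and the log2 fold change was -0.55 with an interval from -0.94 to -0.15 (adjusted p = 0.0632). It was called in 4 of 18 settings, among them without shControl replicate 3 and shLmna replicate 2 (-0.60, adjusted p = 0.0231).

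Ptk2, which encodes FAK, had an estimate of -0.032 (-0.41 to 0.35), and Pxn, the paxillin gene, one of -0.15 (-0.56 to 0.26). Git1, a GTPase-activating scaffold that binds paxillin, was at 280 to 447 in shControl and at 225 to 325 in shLmna, an estimate of -0.41 (-0.80 to -0.023, adjusted p = 0.152), and it was called in 2 of 18 settings. Its relative Git2 and their partner Arhgef7, an exchange factor for Rac and Cdc42, had estimates of 0.55 (-0.20 to 1.30) and 0.22 (-0.22 to 0.65). Crkl, an adaptor that binds p130Cas and paxillin, had one of 0.082 (-0.34 to 0.50). Nedd9, the untested relative of Bcar1, had 3, 6 and 1 UMIs in the shControl libraries and 8, 11 and 6 in the shLmna libraries, too few for the test.

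LIM proteins bind actin and alpha-actinin at adhesions and along stress fibers. Of these 7 of 8 matched and were tested, and 1 was called. Pdlim1 (chr19:40221173-40271842, minus strand), which binds alpha-actinin, was at 460, 459 and 337 CPM in shControl and at 259, 254 and 281 in shLmna. The shLmna libraries lay close together and below all control libraries, of which shControl replicate 3 was the lowest. Pdlim1 fell by 0.66 on the log2 scale, to 0.631 of its level (SE 0.15, adjusted p = 0.00926). Only leaving out shControl replicate 2 ended the call (adjusted p = 0.0615), and without both libraries with melanocyte transcripts Pdlim1 fell by 0.77 (adjusted p = 0.00265).

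Pdlim7, a PDZ and LIM protein of the same family, was at 320, 300 and 292 CPM in shControl and at 221, 186 and 260 in shLmna. The libraries did not overlap, and the log2 fold change was -0.45 with an interval from -0.77 to -0.14 (adjusted p = 0.0553), just over the threshold, with 8 of 18 settings calling it. The family member Pdlim5 had an estimate of -0.24 (-0.79 to 0.32). Zyx, which encodes the tension-sensitive protein zyxin, was at 1545 to 1822 in shControl and at 1229 to 1527 in shLmna without overlap, an estimate of -0.25 (-0.55 to 0.054). Its relatives Trip6 and Lpp had estimates of -0.033 (-0.42 to 0.35) and 0.24 (-0.34 to 0.82), and Csrp1 had one of 0.058 (-0.27 to 0.39). Summed over the 7 LIM proteins, the levels were 3321, 2924 and 2689 in shControl and 2700, 2208 and 2564 in shLmna, and the groups overlapped.

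All 6 surface partners of integrins matched and were tested, and 1 was called. Cd47 (chr16:49800533-49915010, plus strand) encodes a receptor for thrombospondin-1 that associates with beta-3 integrins and gives macrophages a signal not to engulf the cell. It was at 116, 119 and 126 CPM in shControl and at 158, 148 and 229 in shLmna. The control libraries were close together, all shLmna libraries were above them, and shLmna replicate 3 stood highest. Cd47 rose by a log2 fold change of 0.56 (SE 0.17, adjusted p = 0.0411), and without shLmna replicate 3 the value was 0.34 (adjusted p = 0.197). Its 3′ end has the lowest GC content of the tested members, 35.4%, and after the GC correction the log2 fold change was 0.13 (adjusted p = 0.655). The call was further lost without shControl replicate 1 (0.0954) or 2 (0.136) and with limma-voom (0.0506), and without both libraries with melanocyte transcripts the value was 0.71 (adjusted p = 0.0132).

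Syndecans are heparan sulfate proteoglycans that act beside integrins on fibronectin. Sdc1 was at 330, 315 and 331 CPM in shControl and at 426, 430 and 394 in shLmna. Every shLmna library was above every control library, and the log2 fold change was 0.36 with an interval from 0.083 to 0.63 (adjusted p = 0.0805). Sdc4 had an estimate of 0.63 (0.13 to 1.13, adjusted p = 0.0918) at lower counts, also without overlap, and its call without both libraries with melanocyte transcripts was at 0.87 (adjusted p = 0.035). The hyaluronan receptor Cd44 had an estimate of -0.15 (-0.54 to 0.24), and the tetraspanins Cd151 and Cd9, which organise integrins in the membrane, had estimates of 0.018 (-0.35 to 0.39) and -0.19 (-0.47 to 0.094).

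Over the 34 members that were not called, the 95% intervals ran from -1.33 to 1.30 on the log2 scale at their widest, and 29 of the 34 lay wholly within a change of 1 in either direction. For those members a change above that size was outside the interval, whereas smaller changes remain possible within these intervals.

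**Figure D4:**
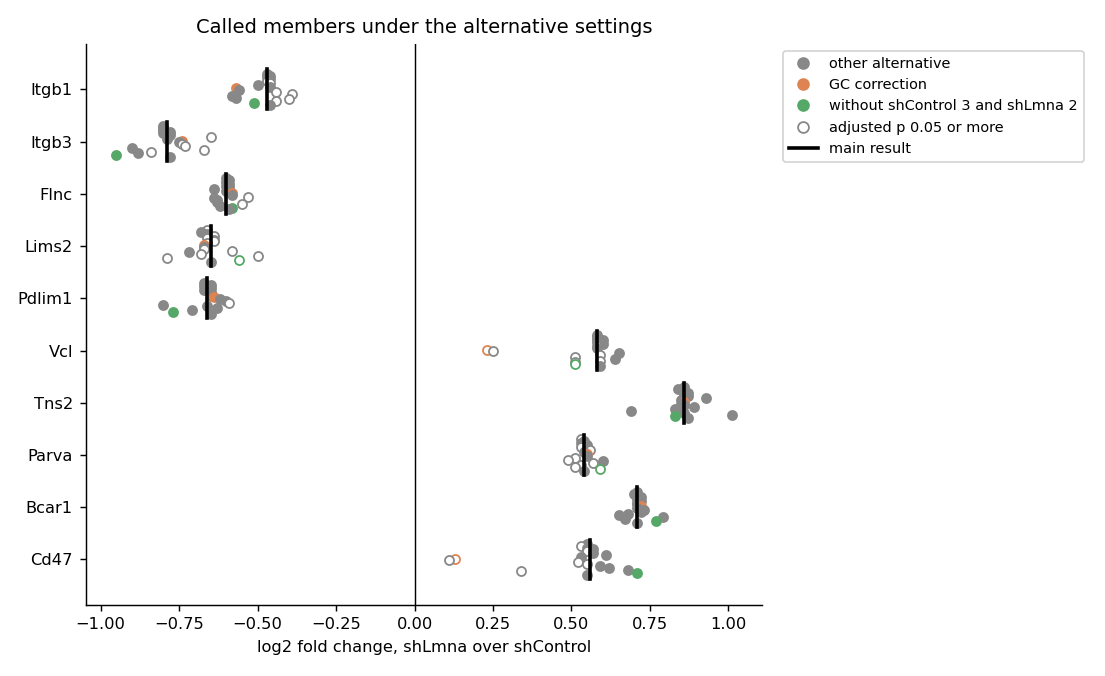
Log2 fold change of shLmna over shControl for the 10 called members in the main result (black line) and under 18 alternative settings (points), filled where the adjusted p stayed below 0.05 and open where it did not, with the GC correction in orange and the fit without shControl replicate 3 and shLmna replicate 2 in green. No point crosses 0, and the GC correction moved Vcl from 0.58 to 0.23 and Cd47 from 0.56 to 0.13.

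Other genes of integrin adhesion were taken as a list of 114, of which 92 matched and 75 were tested. Of these 17 were called (22.7%), 14 higher and 3 lower in shLmna, where 13.7% of all tested genes were called, 7.96% higher and 5.78% lower. Among matrix ligands, which integrins bind, 7 of 14 tested were higher (50%) and 0 lower. At an unadjusted p below 0.05 there were 9 in either direction, where the share of all tested genes was 28.4%. The lists were chosen with earlier results of these data known, so these shares describe the lists and are no test of them. Spp1, which encodes the Itgav ligand osteopontin, rose from 114, 129 and 177 CPM to 322, 394 and 452 (log2 fold change 1.48, SE 0.18, adjusted p = 8.6e-05). The basement membrane collagens Col4a1 and Col4a2 rose by log2 fold changes of 0.66 (adjusted p = 0.00461) and 0.62 (0.00663). The other ligands called higher were Thbs1, the ligand of Cd47, with Col6a1, Col6a2 and Nid1, at 0.59 to 1.58. The highest of these values, 1.58, is that of Thbs1 and rests on low counts. Thbs1 had 7, 9 and 4 UMIs in the shControl libraries and 16, 24 and 17 in the shLmna libraries. Its shControl counts were all under the minimum count of the filter, so that it was tested only because of its level in shLmna. It is nevertheless counted among the 7 ligands called higher. No libraries of the groups overlapped in Spp1, Col4a1 or Col4a2, which were called in all 18 settings. Col6a1 was called in 16 and Thbs1 in 13 of the 17 settings in which they were fitted, Col6a2 in 9 of 17, and Nid1 in 9 of 18, with its call lost under the GC correction (0.35, adjusted p = 0.0986).

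Among the other called genes of adhesion, Lasp1, an actin-binding LIM protein, was at 210, 203 and 193 CPM in shControl and at 335, 313 and 349 in shLmna (log2 fold change 0.72, SE 0.13, adjusted p = 0.00248). Csk, the kinase that inhibits Src, was at 189, 186 and 166 in shControl and at 305, 272 and 274 in shLmna (0.65, SE 0.13, adjusted p = 0.00538). Both were above every control library in every shLmna library. Rhob, a small GTPase of endosomes, fell from 663, 729 and 652 to 218, 198 and 235 (-1.66, SE 0.13, adjusted p = 3.8e-06), and no gene of the list had a larger change. Slc3a2, the beta-1 integrin partner CD98hc, fell by 0.56 on the log2 scale (SE 0.13, adjusted p = 0.0105), and Itga2b, the platelet integrin subunit, fell by 1.04 at 4.12 to 9.8 CPM (SE 0.33, adjusted p = 0.0423). Lasp1, Csk, Rhob and Slc3a2 were called in all 18 settings and Itga2b in 6 of the 17 in which it was fitted. The activators and inhibitors of integrins had 2 of 12 called higher (16.7%), and the actin linkers and LIM proteins 3 of 14 higher (21.4%). The signalling genes had 2 of 25 higher and 1 lower, 12% in all. Of all tested genes 13.7% were called, near the shares of the signalling genes and of the activators and inhibitors.

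**Figure D5:**
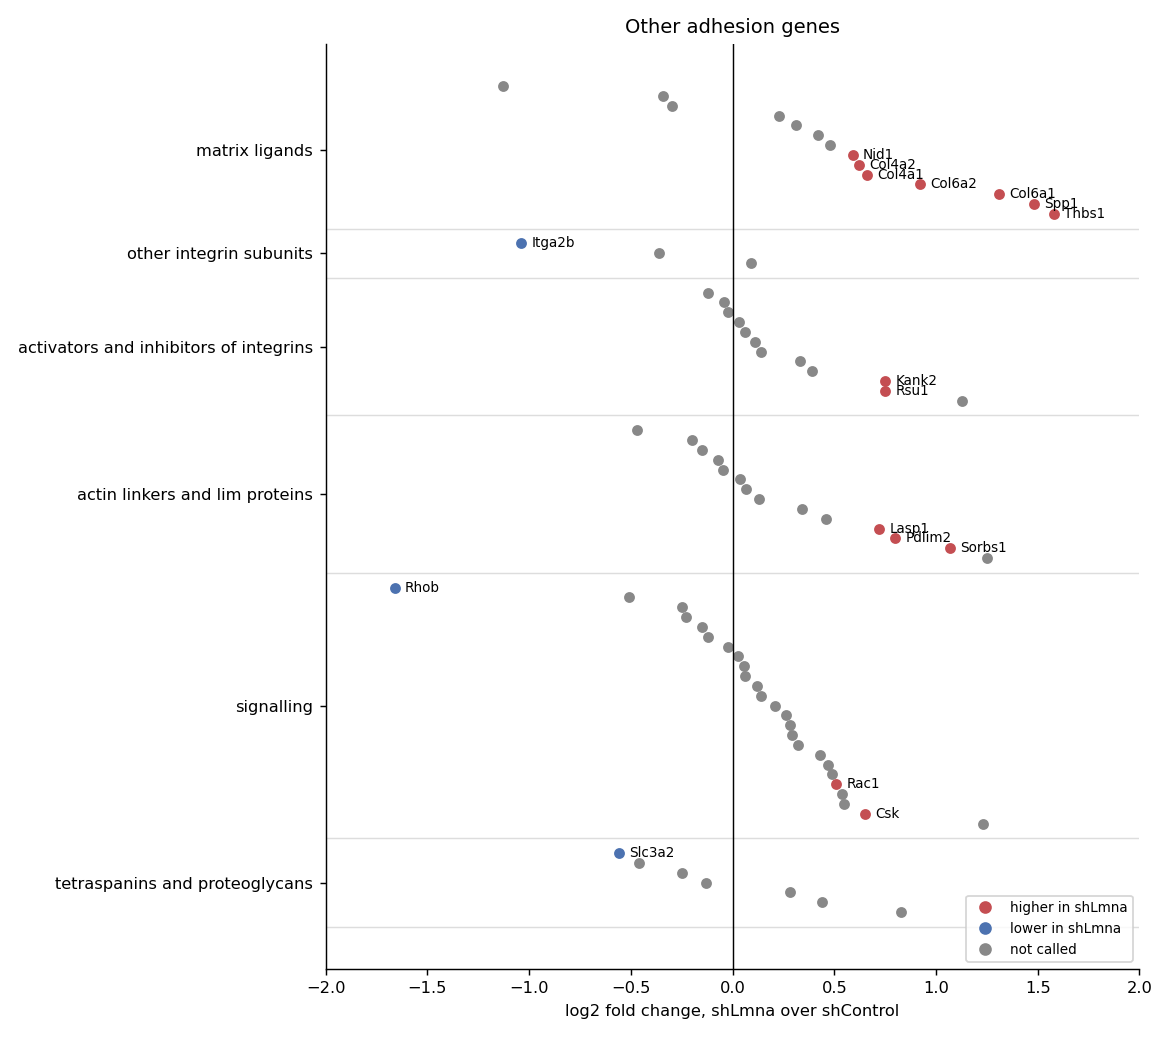
Log2 fold change of shLmna over shControl for the 75 tested other adhesion genes (points), grouped by role, with called genes named and colored, red for higher and blue for lower in shLmna. In the row of matrix ligands 7 of 14 points are red and none is blue, and Rhob lies at -1.66. The red points include Thbs1, which was tested only because of its level in shLmna.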

How the data were processed

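RNA was measured in 6 MARS-seq libraries, 3 of shControl and 3 of shLmna cells, grouped by the labels. The authors trimmed reads with cutadapt, mapped them to mm10 with STAR 2.4.2a and deposited raw UMI counts over the last 1000 bases of each gene and 100 bases downstream. Use of the strand is not given in the sources used here. The counts were not normalized by the authors, and every row reached 6 UMIs in some library. A table of log2 values, corrected with ComBat, and a DESeq2 table of fold changes and p-values were also deposited and were not used. Only the raw count columns of the 6 libraries were read.

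Low counts were filtered with filterByExpr (minimum count 10, 8969 genes left), and libraries were scaled by TMM factors and compared with edgeR 4.0.16 (quasi-likelihood test, Benjamini-Hochberg adjustment over all tested genes, R 4.3.3). The call rule was an adjusted p below 0.05. Alternatives were DESeq2 1.42.0, limma-voom 3.58.1, RLE and upper-quartile scaling, other filters, thinned libraries, a GC correction by loess (span 0.3), a replicate block and each library left out. Fits without the libraries with melanocyte transcripts, or with a term for them, were chosen after seeing the data. Scripts were tested on simulated counts, with planted changes larger than that of any called member and in well-counted genes. That test does not cover changes of the size found in the members. Coordinates are those of GENCODE release M21 (GRCm38).

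Full statistics are given for each called member and, in each role, for the other member with the smallest p. The 5 higher and up to 5 lower other adhesion genes with the smallest p are given with at least their log2 fold change and adjusted p. Members and lists were chosen with earlier results of these data known. The p-values set the difference between groups against the spread between these libraries, estimated with information from all tested genes. The labels do not say that replicates came from separate cultures, so that spread need not be the one between cultures. The smallest p that exact permutation of 3 against 3 libraries allows is 0.1. Replicates of a group differed by 5.36 to 8.42 times the sampling noise (chi-square per degree of freedom).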

Additional observations from a re-analysis of the deposited data

How the results depend on the processing

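Of the 10 called members, 130 of 180 values over the 18 settings stayed called, 50 passed no longer and 0 changed sign. The higher members numbered 3 with no filter on low counts, 3 with thinned libraries and 2 to 5 with one library left out, and the lower members 3, 3 and 1 to 8. With a mean count of at least 50 there were 3 lower members, with the GC correction 8 and with the term for melanocyte transcripts 8. By the criteria of the study 0 to 1 members were called with one library left out, the 1 being Tns2 without shLmna replicate 3. The called other adhesion genes numbered 11 with a mean count of at least 50 and 9 to 20 with one library left out. The cause of these differences was not tested. With the replicate number as a block (replicate block) 5 members were higher and 5 lower, with Pdlim7 called (adjusted p = 0.0433) and Lims2 not (0.0524). Deviations of same-numbered libraries correlated at 0.352, -0.115 and 0.00519, so that the numbers did not pair the libraries throughout. Those of shControl replicate 3 and shLmna replicate 2 correlated at 0.35. Whether libraries of the groups share a batch was not tested, and the main fit holds no term for one.

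Signs changed in 11 members that were not called. Without both libraries with melanocyte transcripts the values were -0.10 for Itga6, 0.052 for Cd44 and -0.079 for Cd151. With the GC correction they were -0.23 for Lims1 and 0.0029 for Trip6, and with the replicate block as well -0.23 and 0.0079. With thinned libraries Itgb5 was at -0.027. With one library left out the values ran from -0.17 to 0.19 for Itga6, -0.32 to 0.28 for Itgb5, -0.16 to 0.14 for Ptk2, -0.33 to 0.0042 for Pxn, -0.05 to 0.22 for Crkl, -0.18 to 0.17 for Trip6, -0.42 to 0.047 for Pdlim5, -0.067 to 0.15 for Csrp1 and -0.14 to 0.22 for Cd151. Depth limited Nedd9, whose counts were too low for a test.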
